A study of Ovis aries with 8 samples.

Results

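The proteasome genes of the sheep liver were taken as every row of the deposited table whose symbol starts with PSMA, PSMB, PSMC, PSMD, PSME, PSMF or PSMG followed by a digit, with any row described as a pseudogene left out. The rule found 49 of the 27729 genes of the table, and 0 of them were pseudogenes. Poly(A)-selected RNA was sequenced from the livers of 8 lambs, 4 in the group labelled RES and 4 in the group labelled ADL. The labels do not spell the group names out, and the series title speaks of feed restriction of suckling lambs that were later fattened. All 8 animals shared the organism, Ovis aries, the tissue and a slaughter weight of 27 kg. Breed, sex and age were not given in the sources used here. Every library stood for 1 animal, so the errors below are those between animals.

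The proteasome is the main protease of the cytosol and nucleus and breaks down proteins that carry ubiquitin chains. Its core particle (20S) is a stack of rings: outer alpha rings that gate the entry and inner beta rings that hold the catalytic threonines. A regulatory cap (19S) binds the ubiquitin chain, removes it, and unfolds the substrate with a ring of ATPases. Interferon-induced beta subunits replace the constitutive catalytic ones in the immunoproteasome, whose products suit presentation on MHC class I. Hepatocytes express the constitutive form strongly and recycle much protein through it, while leukocytes are rich in the immunoproteasome.

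The libraries held 14514084 to 16182407 gene-assigned reads each, and levels are given as TPM, which weighs each gene's reads by its length and sums to the same total in every library. A ± after a mean is the SD over 4 lambs, and a ± after a difference is its standard error. Hepatocyte markers summed to 135170 to 178650 TPM in RES and 176640 to 196080 TPM in ADL, and none of the 8 was at 0 in every lamb. Most of that sum was ALB, at 94305 to 133800 TPM in RES and 132000 to 147820 TPM in ADL. Of those 8 markers 6 were lower and 2 higher in RES in mean, 1 of them lower at an unadjusted p under 0.05 (1.5% of all tested genes). After division by size factors 6 were again lower and 2 higher, with 2 lower at an unadjusted p under 0.05 (4.25%). The groups did not overlap for 1 marker, lower in RES (0.781%), and for 2 after scaling, both lower (2.41%). The part of these marker differences in the proteasome values was not tested. RES minus ADL was tested with limma on log2(TPM + 1) over the 13437 genes averaging 1 TPM or more, with Benjamini-Hochberg adjustment and a threshold of 0.05. The fit called 0 of 13437 genes (0%, smallest limma adjusted p = 0.395), with 1594 at an unadjusted p under 0.05. The median gene was 0.095 log2 units higher in RES in deposited TPM and 0.0056 higher after division by size factors. Differences are therefore given on both scales where the direction depends on it. RES lambs 1 and 3 stood apart from the other 6 lambs in several genes of antigen presentation, named where a result rests on them.

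Of the 49 proteasome genes, 46 passed the filter and 3 did not. The 3 untested genes were the testis-expressed alpha subunit PSMA8 (mean 0.127 TPM), the thymus-specific beta subunit PSMB11 (mean 0.0245 TPM, above 0 in RES lambs 1 and 2 only) and PSMC3IP (mean 0.377 TPM). PSMC3IP matched by its symbol but encodes a recombination factor that binds the ATPase subunit PSMC3, and it is no proteasome subunit. The 45 tested genes with a position lay on 18 chromosomes, and PSMG4 was listed as unplaced. The 7 alpha subunits lay close together, from 88.3 TPM for PSMA5 to 126 TPM for PSMA6 (means over 8 lambs), a 1.43-fold range. The 7 constitutive beta subunits spanned a 3.40-fold range, from 48.3 TPM for PSMB6 to 164 TPM for PSMB1. The low end is uncertain, because PSMB6 may share reads with its pseudogene rows. Summed with them it averaged 159.7 TPM in RES and 163 TPM in ADL, and the next lowest beta subunit was PSMB5 at 82.4 TPM. The 17 cap subunits found by the rule were lower, with a median of 61.9 TPM against 96.2 TPM for the 14 core subunits. These cap subunits ran from 27.00 TPM for PSMD14 to 104 TPM for PSMC3. PSMD14 may likewise share reads with a pseudogene row. The highest of all was PSME1, a subunit of the interferon-induced 11S activator, at 262 TPM, and the lowest tested was the immunoproteasome subunit PSMB9 at 8.94 TPM.

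**Figure D1:**
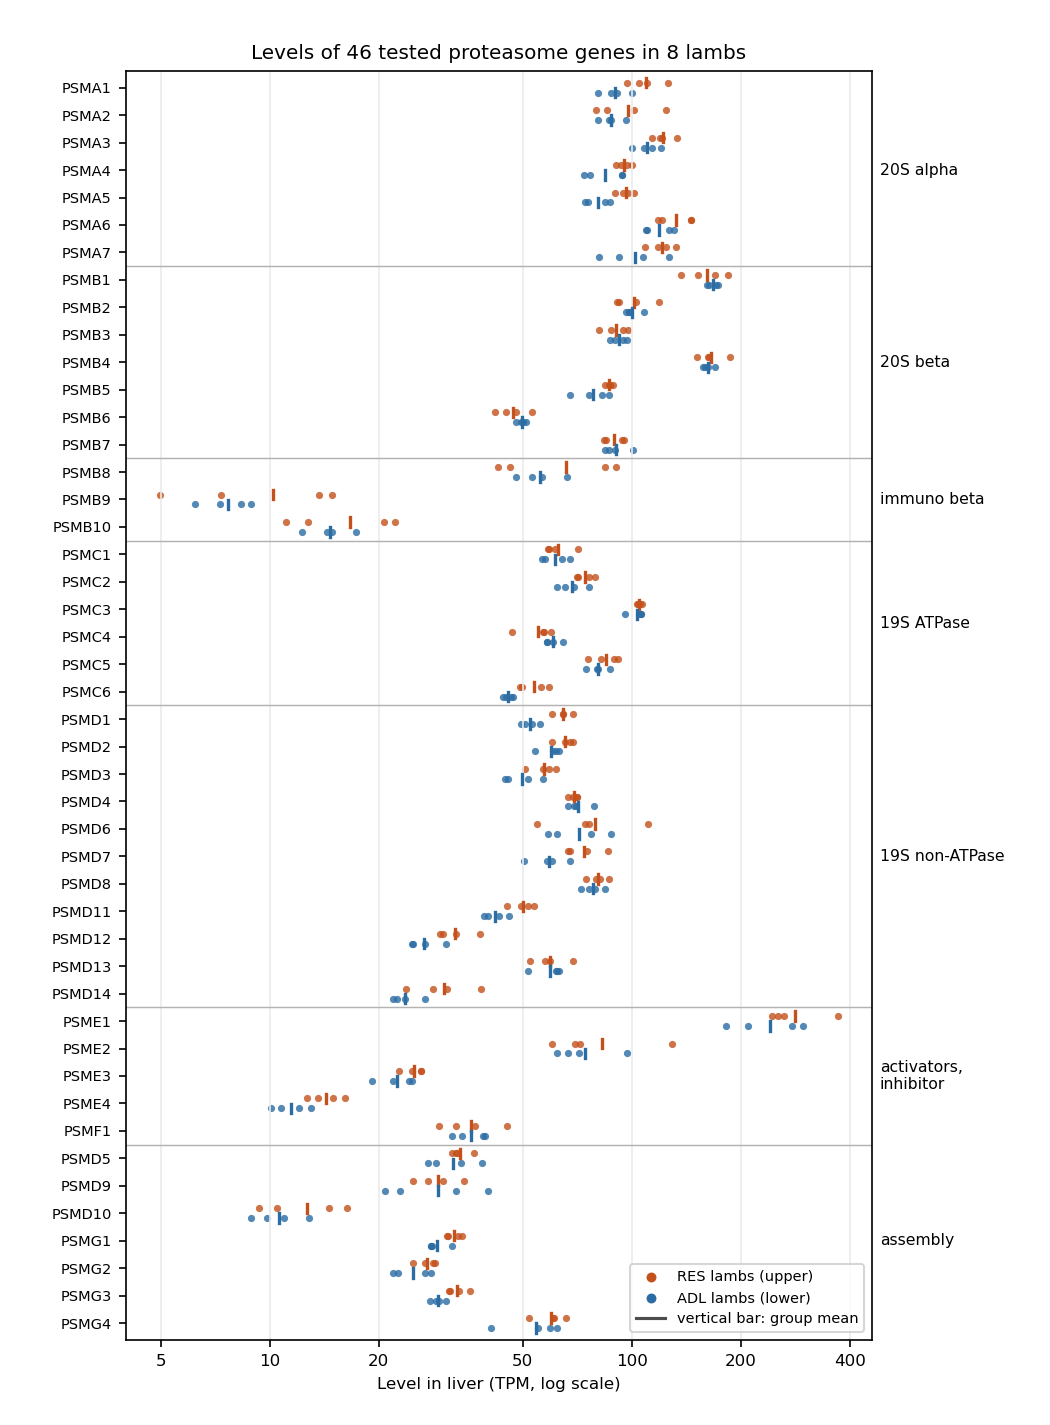
Level of each of the 46 tested proteasome genes (TPM, log scale) in the 4 RES lambs (upper points) and the 4 ADL lambs (lower points), with group means as vertical bars, grouped by role. PSME1 stands highest and PSMB9 lowest, and the RES points of PSMB8, PSMB9 and PSMB10 are spread more widely than their ADL points.

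No proteasome gene passed the test between RES and ADL, and the smallest limma adjusted p among the 46 was 0.395. In the deposited TPM values 38 of the 46 differences were above 0 and 8 were below, beside 71.0% of all tested genes above 0. Their median difference was 0.14 log2 units, beside 0.095 for all tested genes. At an unadjusted p under 0.05 there were 9 members higher in RES, or 9 of 46, where 10.4% of all tested genes were, and 0 members lower, where 1.5% were. With 1 lamb left out that count was 4, 7, 6 and 10 without RES lambs 1 to 4. It was 3, 7, 4 and 11 without ADL lambs 1 to 4, and 5 with the lamb number as a block. Over all tested genes, in either direction, 1682, 1475, 1477 and 1139 were under 0.05 without RES lambs 1 to 4. There were 1231, 1687, 938 and 1458 without ADL lambs 1 to 4 and 1514 with the block, against 1594 in the main fit. After division by size factors 30 members were above 0 and 16 below, with 51.6% of all tested genes above 0. The scaled median was 0.038, and 1 member was higher (3.4% of all tested genes) and 1 lower (4.25%) at an unadjusted p under 0.05. The groups did not overlap for 4 members, all higher in RES (6.61% of all tested genes), in deposited TPM. There were 0 members without overlap on the lower side (0.781%). After scaling the groups did not overlap for 1 member, lower in RES (2.41%), and for 0 on the higher side (2.22%). With voom on the recovered reads 37 members were above 0 (67.6% of all tested genes) and 8 had an unadjusted p under 0.05, all higher in RES (9.07%). In the authors' deposited table, a DESeq2 test of RES over ADL, 1 of the 49 members has an unadjusted p under 0.05 (5.18% of 22130 genes) and 0 of the 40 with an adjusted p are under 0.05 (0.231% of 5627 genes). The smallest adjusted p of a member there is 0.387. In whole liver, fewer cells of a type and less RNA per cell cannot be told apart.

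**Figure D2:**
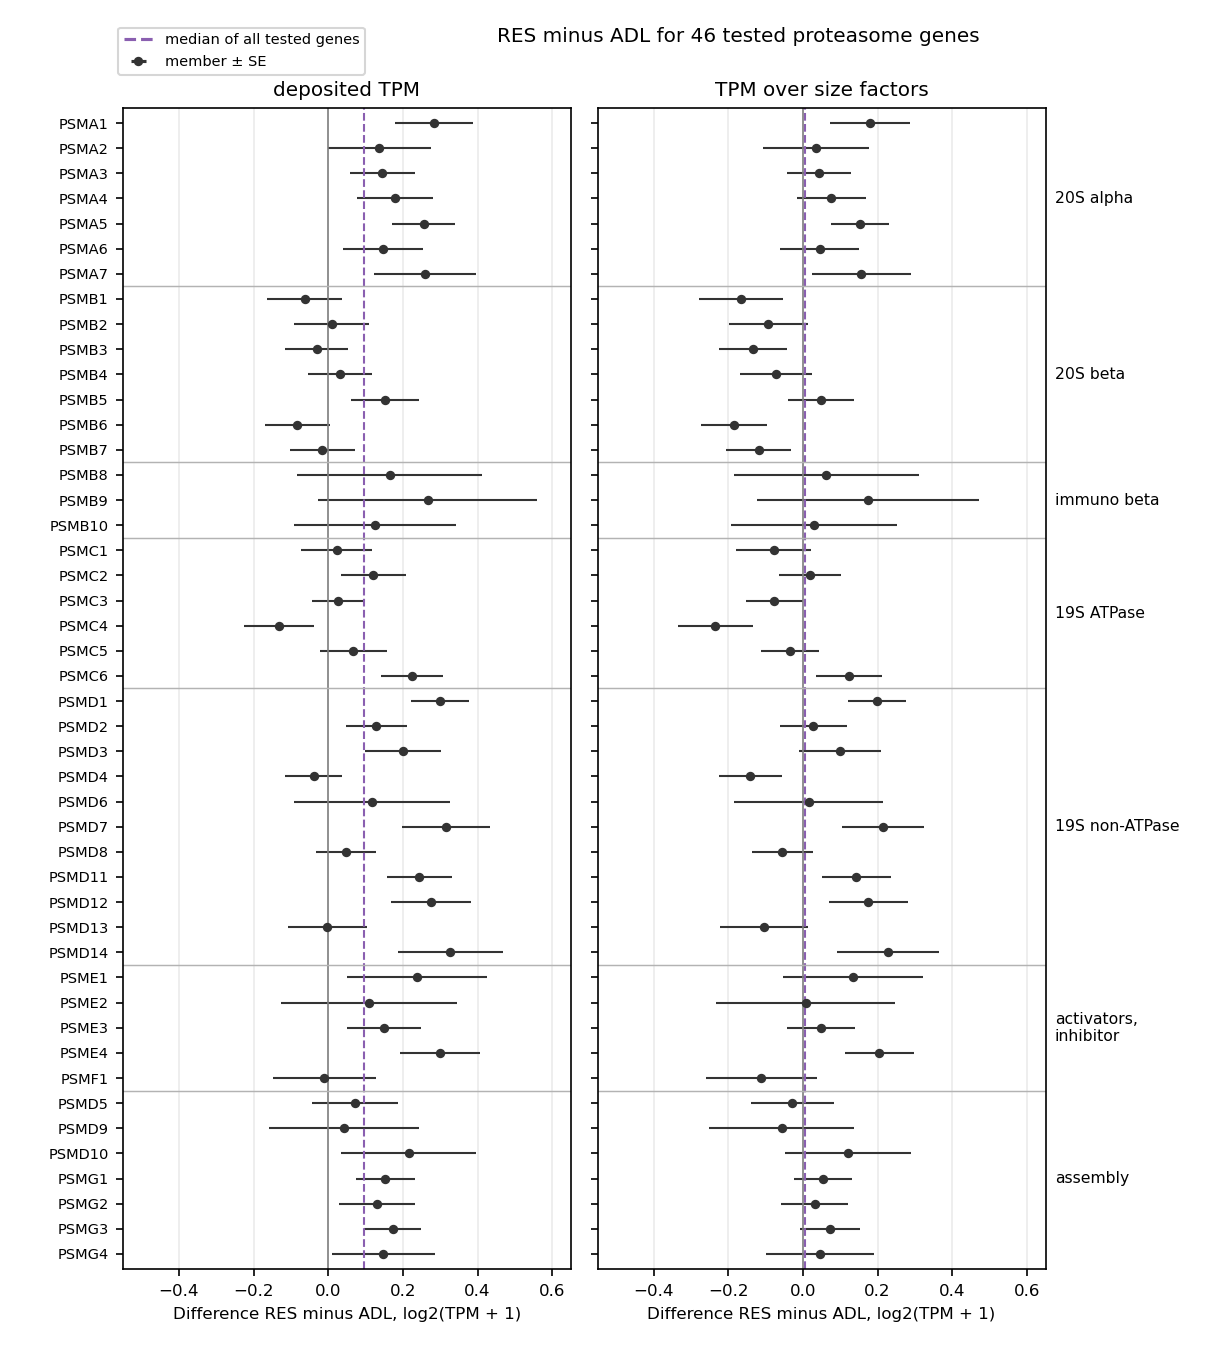
RES minus ADL difference on log2(TPM + 1) with limma's standard error for the 46 tested proteasome genes, in deposited TPM (left) and TPM over size factors (right); the dashed line is the median of all tested genes. All 7 alpha subunits lie above 0 in both panels, while 6 of the 7 constitutive beta subunits lie below 0 in the right panel.

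The alpha subunits form the outer rings and hold the gate of the core. All 7 tested were above 0 in deposited TPM (median 0.18, range 0.14 to 0.28) and all 7 remained above 0 after scaling (median 0.076). PSMA5 stood at 102, 90.1, 97.9 and 94.9 TPM in RES lambs 1 to 4 and 74.3, 87.2, 75.7 and 84.6 TPM in ADL lambs 1 to 4. Every RES lamb lay above every ADL lamb for PSMA5, by a narrow margin between RES lamb 2 and ADL lamb 2. Its difference was 0.26 ± 0.084 (SE; limma adjusted p = 0.395), or 0.15 after scaling, where the groups overlapped. PSMA1 stood at 110.3, 105, 126 and 96.9 TPM in RES lambs 1 to 4 and 87.5, 90.9, 80.5 and 100.1 TPM in ADL lambs 1 to 4. Only RES lamb 4 lay within the ADL range, just under ADL lamb 4, and the difference was 0.28 ± 0.10 (SE; limma adjusted p = 0.395). The other 5 alpha subunits had differences of 0.14 for PSMA2, 0.14 for PSMA3, 0.15 for PSMA6, 0.18 for PSMA4 and 0.26 for PSMA7. All 5 had overlapping groups. PSMA7 varied most of the 7 among the ADL lambs, with 81.1 TPM in ADL lamb 1 and 127 TPM in ADL lamb 4. At an unadjusted p under 0.05 there were 2 alpha subunits in deposited TPM, PSMA5 and PSMA1, both higher in RES (10.4% of all tested genes), and 0 after scaling (3.4%).

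The constitutive beta subunits form the inner rings, and 3 of the 7 carry the active sites: PSMB5 (chymotrypsin-like), PSMB6 (caspase-like) and PSMB7 (trypsin-like). Of the 7, 3 were above 0 and 4 below in deposited TPM, with a median of -0.016. After scaling 1 was above and 6 below, with a median of -0.12, and 0 had an unadjusted p under 0.05 on either scale. PSMB5 stood at 84.2, 88.9, 86.96 and 86.3 TPM in RES lambs 1 to 4 and 67.5, 82.7, 75.98 and 86.5 TPM in ADL lambs 1 to 4. The RES lambs were tightly grouped and ADL lamb 4 lay among them, and the difference was 0.15 ± 0.091 (SE; limma adjusted p = 0.499), or 0.049 scaled. PSMB6 stood at 53.03, 41.95, 47.8 and 44.8 TPM in RES lambs 1 to 4 and 49.3, 49.98, 51.1 and 47.96 TPM in ADL lambs 1 to 4. The ADL lambs lay within the wider range of the RES lambs. Reads of PSMB6 may be shared with 6 rows described as its pseudogenes, and the highest of those, LOC101119057, averaged 87.01 TPM over the 8 lambs. The difference was -0.083 ± 0.087 (SE; limma adjusted p = 0.690), or -0.18 scaled. PSMB7 stood at 93.8, 84.9, 95.4 and 83.9 TPM in RES lambs 1 to 4 and 84.6, 90.04, 86.6 and 101 TPM in ADL lambs 1 to 4. The groups overlapped almost entirely, with a difference of -0.016 ± 0.088 (SE; limma adjusted p = 0.949), which was 0.0084 without RES lamb 2, 0.014 without RES lamb 4 and 0.037 without ADL lamb 4. The 95% limits of the difference were -0.053 to 0.36 for PSMB5, -0.28 to 0.11 for PSMB6 and -0.21 to 0.18 for PSMB7. The 4 structural subunits, which have no active site, had differences of -0.063 for PSMB1, -0.031 for PSMB3, 0.0099 (scaled -0.092) for PSMB2 and 0.032 (scaled -0.071) for PSMB4. RES lamb 4 had the lowest value of 5 of the 7 beta subunits.

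The summed TPM of the 7 alpha subunits over that of the 7 constitutive beta subunits is a ratio within each liver and does not move with the scaling of the library. It was computed after the values of the single genes had been seen and is given without a test. The ratio was 1.08, 1.01, 1.02 and 1.07 in RES lambs 1 to 4 and 0.860, 0.967, 0.842 and 0.971 in ADL lambs 1 to 4. Every RES lamb lay above every ADL lamb, with means of 1.04 ± 0.0321 in RES and 0.910 ± 0.0687 in ADL (SD, n = 4 each). The alpha sum ran from 723 to 833 TPM in RES and 616 to 753 TPM in ADL, and the beta sum from 676 to 815 TPM in RES and 716 to 775 TPM in ADL. Adding the rows of alpha and beta pseudogenes left the groups apart, at 0.899 to 0.957 in RES and 0.746 to 0.873 in ADL. With the 3 immunoproteasome subunits added to the beta sum the groups met, at 0.883 to 0.979 in RES and 0.770 to 0.883 in ADL. The beta genes are shorter, with a median of 883 bases used for TPM against 1144 bases for the alpha genes. Over all tested genes the median difference was 0.029 for genes under 1000 bases and 0.060 for those of 1000 to 1500 bases. The part of gene length in the ratio was not tested.

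The immunoproteasome differs from the constitutive core in its catalytic subunits: PSMB8 takes the place of PSMB5, PSMB9 that of PSMB6 and PSMB10 that of PSMB7. All 3 had mean differences above 0 (median 0.16, scaled 0.063), and 0 of the 3 had an unadjusted p under 0.05 (10.4% of all tested genes). PSMB8 stood at 84.1, 42.6, 90.6 and 46.2 TPM in RES lambs 1 to 4 and 52.95, 66.2, 47.9 and 56.4 TPM in ADL lambs 1 to 4. PSMB9 stood at 13.7, 7.31, 14.9 and 4.97 TPM in RES lambs 1 to 4 and 8.33, 7.29, 6.20 and 8.89 TPM in ADL lambs 1 to 4. PSMB10 stood at 20.7, 12.7, 22.2 and 11.1 TPM in RES lambs 1 to 4 and 14.9, 17.3, 14.4 and 12.2 TPM in ADL lambs 1 to 4. In all 3 genes RES lambs 1 and 3 were the 2 highest of the 8 animals, while RES lamb 4 lay below the ADL range in all 3. RES lamb 2 lay below it for PSMB8 and inside it for PSMB9 and PSMB10. The differences were 0.16 ± 0.25 for PSMB8, 0.27 ± 0.29 for PSMB9 and 0.13 ± 0.22 for PSMB10 (SE; limma adjusted p = 0.788, 0.710 and 0.817 in that order). Their 95% limits were -0.40 to 0.73, -0.40 to 0.93 and -0.36 to 0.61. Without RES lamb 3 the difference was -0.013 for PSMB8 and -0.023 for PSMB10, on the other side of 0, and 0.061 for PSMB9. For PSMB9 it was 0.099 without RES lamb 1 and 0.53 without RES lamb 4.

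The ratio of each immunoproteasome subunit to the constitutive subunit it replaces was compared by an exact two-sided permutation test over the 70 assignments of lambs, for 3 ratios. PSMB8 over PSMB5 was 0.9997, 0.479, 1.04 and 0.535 in RES lambs 1 to 4 and 0.785, 0.801, 0.630 and 0.651 in ADL lambs 1 to 4. The RES lambs lay on both sides of the ADL lambs, 2 above and 2 below all of them, and the mean log2 ratio differed by 0.013 ± 0.31 (SE; exact permutation p = 0.971). It was -0.15 without RES lamb 1, -0.17 without RES lamb 3, and leaving out ADL lamb 3 or 4 gave -0.046 and -0.030. PSMB9 over PSMB6 was 0.258, 0.174, 0.311 and 0.111 in RES lambs 1 to 4 and 0.169, 0.146, 0.121 and 0.185 in ADL lambs 1 to 4. Its mean log2 ratio differed by 0.37 ± 0.36 (SE; exact permutation p = 0.343), with RES lambs 1 and 3 above and RES lamb 4 below every ADL lamb. With 1 lamb left out it ran from 0.15 without RES lamb 3 to 0.65 without RES lamb 4 (exact permutation p = 0.0571). PSMB10 over PSMB7 was 0.221, 0.150, 0.232 and 0.132 in RES lambs 1 to 4 and 0.176, 0.192, 0.166 and 0.121 in ADL lambs 1 to 4. RES lambs 1 and 3 again lay above every ADL lamb, and the mean log2 ratio differed by 0.15 ± 0.25 (SE; exact permutation p = 0.571), from 0.0091 without ADL lamb 4 to 0.29 without RES lamb 4. Adjusted over the 3 ratios, the smallest exact permutation p was 0.857, and the smallest p this design allows is 0.0286. In TPM, PSMB8 stood near the level of PSMB5 in RES lambs 1 and 3, while PSMB9 stayed well below PSMB6 and PSMB10 well below PSMB7 in all 8 lambs.

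**Figure D3:**
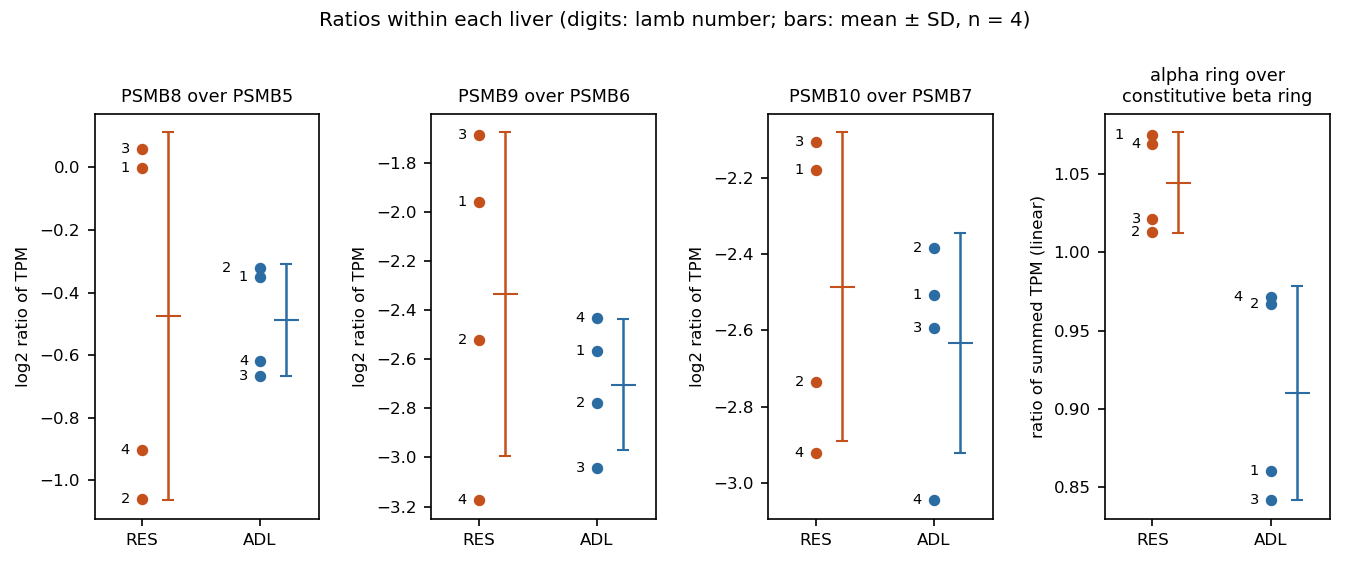
Ratio of each immunoproteasome subunit to its constitutive counterpart (log2 of the TPM ratio, first 3 panels) and of the summed alpha to the summed constitutive beta subunits (linear, last panel) in each RES and ADL lamb, with mean ± SD (n = 4). RES lambs 1 and 3 lie above every ADL lamb in the first 3 panels, and all 4 RES lambs do in the last.

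PSMB8 and PSMB9 lie in the class II region of the MHC beside the peptide transporter genes, at chromosome 20 from 7244351 to 7247355 and chromosome 20 from 7258522 to 7264057, as the deposited table places them on a build not given in the sources used here. TAP1, a subunit of the transporter that carries peptides into the endoplasmic reticulum, lies between them, with 1202 bases between it and PSMB8 and 1100 bases between it and PSMB9. PSMB10 lies apart, at chromosome 14 from 34666011 to 34669147. TAP1 stood at 15.2, 10.7, 20.7 and 9.18 TPM in RES lambs 1 to 4 and 10.8, 11.9, 8.94 and 12.2 TPM in ADL lambs 1 to 4. Again RES lambs 1 and 3 were the highest. Of the 11 tested partner genes of the immunoproteasome, 10 were higher and 1 lower in deposited TPM (median 0.20), where 71.0% of all tested genes were higher. After scaling 8 were higher and 3 lower (median 0.12), where 51.6% of all tested genes were higher. On either scale 0 of the 11 had an unadjusted p under 0.05. The closest to the threshold were ERAP1, which trims peptides (0.20 ± 0.12, limma adjusted p = 0.497), and TAP2, the other transporter subunit (0.22 ± 0.16, limma adjusted p = 0.574). RES lambs 1 and 3 were the 2 highest of 8 in 7 of the 11 partners, in 3 of 3 immunoproteasome subunits, in 5 of 7 alpha subunits and in 0 of 7 constitutive beta subunits, a count made after the values were seen, beside 5.41% of all tested genes. The count was 2 of 6 for the cap ATPases, 1 of 11 for the other cap subunits and 1 of 7 for the assembly factors. It was 0 of 5 for the activators and inhibitor, and 12 of 46 over all tested members.

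Across the 8 lambs the immunoproteasome subunits varied together and with TAP1. Pearson's r on log2(TPM + 1) was 0.915 for PSMB8 and PSMB10 (exact permutation p = 0.00231, Spearman's rho 0.810, exact permutation p = 0.0218). It was 0.877 for PSMB8 and PSMB9 (exact permutation p = 0.00625, rho 0.738, exact permutation p = 0.0458). For PSMB9 and PSMB10 it was 0.839 (exact permutation p = 0.0112, rho 0.643, exact permutation p = 0.0962). For PSMB9 and TAP1 it was 0.935 (exact permutation p = 0.000446, rho 0.905, exact permutation p = 0.00456) and for PSMB8 and TAP1 0.909 (exact permutation p = 0.00114, rho 0.881, exact permutation p = 0.00724). Adjusted over the 6 relations computed, the exact permutation p of r lay between 0.00268 and 0.0112. The 6 pairs were chosen with earlier results of these data known, and the adjustment does not cover that choice. The 2 lambs farthest from the median of the first gene were RES lambs 1 and 3 in these 5 relations. Without them r was 0.671, 0.445, 0.358, 0.816 and 0.676 in the order given, so the relations among the 3 subunits rest largely on those lambs, which lie apart from the other 6.

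Leukocyte markers were set beside these values. The 9 macrophage markers summed to 601 to 1173 TPM in RES and 803 to 962 TPM in ADL, highest in RES lamb 1. Of the 8 tested, 1 was higher and 7 were lower in RES in mean, 8 of 8 lower after scaling, with 0 at an unadjusted p under 0.05 on either scale. RES lamb 1 was the highest of the 8 lambs in 7 of these 8 genes and RES lamb 4 the lowest in 7, while RES lambs 1 and 3 were the highest pair in 1, PTPRC. PTPRC, the pan-leukocyte antigen CD45, stood at 23.5, 12.01, 18.2 and 11.5 TPM in RES lambs 1 to 4 and 17.7, 14.9, 13.3 and 15.00 TPM in ADL lambs 1 to 4. The 12 T, NK and B cell markers summed to 41.5 to 62.4 TPM in RES and 35.02 to 52.3 TPM in ADL, with 8 tested, 2 of them highest in RES lambs 1 and 3, and none at 0 in every lamb. Of the 8 tested, 5 were higher and 3 lower in RES in mean (median 0.080), or 4 and 4 after scaling. CD2, a T and NK cell antigen chosen after its values were seen, was the 1 whose groups did not overlap. This held in deposited TPM (6.61% of all tested genes) and after scaling (2.22%). CD2 stood at 3.11 ± 0.940 TPM in RES and 1.69 ± 0.218 TPM in ADL (limma adjusted p = 0.395), on 19 to 61 reads per lamb. It was also the 1 of the 8 at an unadjusted p under 0.05 on either scale, higher in RES (10.4% and 3.4% of all tested genes). The T cell receptor subunits CD3D, CD3E and CD3G had differences of -0.0099, -0.042 and 0.054 (scaled -0.025 for CD3G). The B cell receptor subunit CD79A had a difference of -0.23, on 8 to 28 reads per lamb. JCHAIN, CD8A and NKG7 were higher in RES, with differences of 0.54, 0.13 and 0.10 (scaled 0.44, 0.042 and 0.021). The endothelial markers, 6 of 6 tested, summed to 162 to 179.9 TPM in RES and 155 to 173 TPM in ADL, the stellate and fibroblast markers, 6 of 6 tested, to 162 to 217 TPM in RES and 189 to 284 TPM in ADL, and the bile duct markers, 4 of 4 tested, to 14.1 to 18.9 TPM in RES and 10.9 to 19.2 TPM in ADL. RES lambs 1 and 3 were the highest pair in 0 of these 16 genes. The part of leukocyte content in the immunoproteasome values was not tested.

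**Figure D4:**
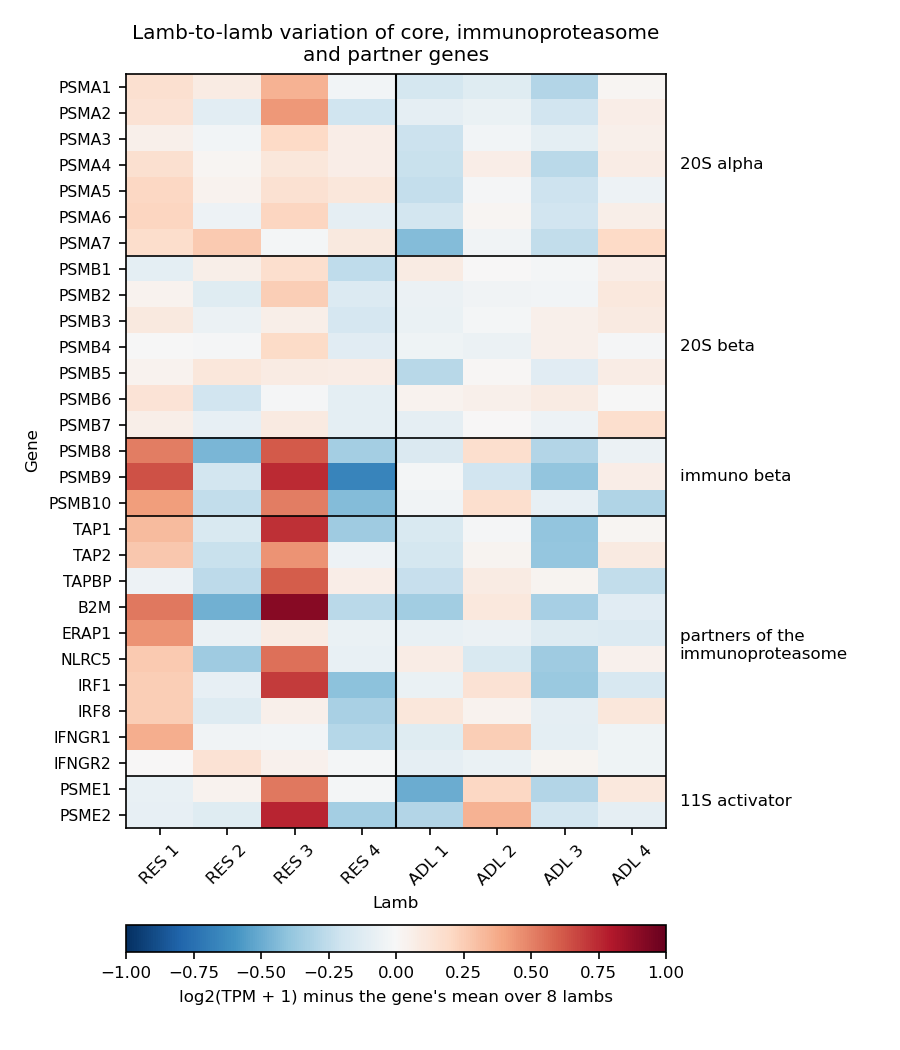
Each gene's log2(TPM + 1) minus its own mean over the 8 lambs, for the 20S subunits, the immunoproteasome subunits, 10 of their 11 partner genes and the 11S activator, with RES lambs left and ADL lambs right of the line. RES lambs 1 and 3 are high in PSMB8, PSMB9, PSMB10, TAP1 and B2M, and RES lamb 3 is the highest in PSME1 and PSME2.

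The 6 ATPases of the cap form the ring that unfolds substrates and opens the core. Of them, 5 were higher and 1 lower in deposited TPM (median 0.047), and 2 were higher and 4 lower after scaling (median -0.056). PSMC6 stood at 56.2, 49.8, 59.2 and 48.99 TPM in RES lambs 1 to 4 and 46.2, 45.04, 44.2 and 46.8 TPM in ADL lambs 1 to 4. All 4 RES lambs lay above all 4 ADL lambs, and the difference was 0.22 ± 0.084 (SE; limma adjusted p = 0.399), or 0.12 scaled. PSMC4 stood at 59.8, 57.3, 57.03 and 46.8 TPM in RES lambs 1 to 4 and 60.6, 64.6, 58.2 and 58.5 TPM in ADL lambs 1 to 4. RES lamb 4 was the lowest and RES lamb 1 lay among the ADL lambs, and the difference was -0.13 ± 0.094 (SE; limma adjusted p = 0.558), or -0.23 scaled. After scaling PSMC4 was the 1 member whose groups did not overlap, and it was also the 1 member lower at an unadjusted p under 0.05 (limma adjusted p = 0.647). PSMC3, the most abundant ATPase, had the smallest spread of the 46 members among the RES lambs and averaged 105 ± 1.58 TPM in RES and 103 ± 4.99 TPM in ADL, with a difference of 0.026, or -0.076 scaled. The remaining ATPases had differences of 0.023 (scaled -0.079) for PSMC1, 0.067 (scaled -0.035) for PSMC5 and 0.12 for PSMC2, and their groups overlapped.

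The 11 non-ATPase subunits found by the symbol rule are part of the base and lid of the cap, where ubiquitin chains are bound and cut off. They held 5 of the 9 members at an unadjusted p under 0.05, all higher in RES: PSMD1, PSMD7, PSMD11, PSMD12 and PSMD14 (10.4% of all tested genes). After scaling 1 of the 11, PSMD1, was under 0.05 (3.4%). In all, 9 of 11 were higher in deposited TPM (median 0.20) and 8 of 11 after scaling (median 0.099). PSMD1, the large scaffold subunit of the base, stood at 68.7, 64.6, 64.4 and 60.2 TPM in RES lambs 1 to 4 and 50.6, 53.05, 49.3 and 55.8 TPM in ADL lambs 1 to 4. All 4 RES lambs lay above all 4 ADL lambs. Its difference was 0.30 ± 0.077 (SE; limma adjusted p = 0.395; 95% limits 0.13 to 0.47), or 0.20 scaled (limma adjusted p = 0.639), where ADL and RES lambs overlapped. It was the member with the smallest p in the fit, and in the authors' deposited table its shrunken log2 fold change is 0.19 ± 0.082 (SE; adjusted p = 0.387). PSMD11, a lid subunit, stood at 53.5, 51.7, 49.3 and 45.1 TPM in RES lambs 1 to 4 and 39.04, 40.1, 42.9 and 45.9 TPM in ADL lambs 1 to 4. RES lamb 4 lay just under ADL lamb 4 and the other RES lambs lay above the ADL range, with a difference of 0.24 ± 0.087 (SE; limma adjusted p = 0.395).

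The lid's deubiquitinase is PSMD14, which works as a pair with PSMD7. PSMD14 averaged 30.3 ± 6.14 TPM in RES and 23.7 ± 2.22 TPM in ADL and PSMD7 73.8 ± 9.13 TPM in RES and 59.1 ± 7.04 TPM in ADL (SD, n = 4 each). A row described as a PSMD14 pseudogene, LOC101120804, averaged 26.4 TPM over the 8 lambs, and reads of the pair may be shared. The differences of PSMD14 and PSMD7 were 0.33 ± 0.14 and 0.32 ± 0.12 (SE; limma adjusted p = 0.416 and 0.395), the 2 largest of the 46. RES lamb 1 had the highest value of both, and the groups overlapped in both. PSMD12, another lid subunit, averaged 32.6 ± 3.85 TPM in RES and 26.7 ± 2.76 TPM in ADL. PSMD4, a ubiquitin receptor of the cap, averaged 69.1 ± 1.84 TPM in RES and 71.2 ± 5.13 TPM in ADL, with a difference of -0.039 ± 0.077. PSMD13 had the difference nearest 0 of the 46, -0.0027, and PSMD6 the widest spread of the class, from 54.6 TPM in RES lamb 3 to 111 TPM in RES lamb 1. The remaining differences were 0.13 for PSMD2, 0.20 for PSMD3 and 0.047 (scaled -0.055) for PSMD8. Summed over the class, non-ATPase over ATPase TPM was 1.48 to 1.61 in RES and 1.31 to 1.49 in ADL, with the groups overlapping at their edges. Core over cap, with only the 17 cap subunits found by the rule, was 1.32 to 1.52 in RES and 1.36 to 1.43 in ADL, highest in RES lamb 3.

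Other activators can replace the cap, and 1 protein inhibits the core. PSME1 and PSME2 together form the interferon-induced 11S activator, and their genes adjoin on chromosome 7 with 4859 bases between them. PSME1 stood at 244, 264, 371 and 254 TPM in RES lambs 1 to 4 and 182, 298, 210.0 and 277 TPM in ADL lambs 1 to 4. PSME2 stood at 71.8, 69.7, 129.5 and 60.02 TPM in RES lambs 1 to 4 and 62.00, 96.9, 66.7 and 71.5 TPM in ADL lambs 1 to 4. RES lamb 3 was the highest in both and lay far above the other RES lambs, and ADL lamb 2 was the highest ADL lamb in both. RES lamb 1, high in the immunoproteasome subunits, lay inside the ADL range in both. The differences were 0.24 ± 0.19 for PSME1 and 0.11 ± 0.24 for PSME2 (SE; limma adjusted p = 0.598 and 0.854), with 95% limits of -0.19 to 0.66 and -0.42 to 0.64. Without RES lamb 3 the difference of PSME2 was -0.13. Across the 8 lambs the pair had an r of 0.833 (exact permutation p = 0.00776, rho 0.738, exact permutation p = 0.0458), or 0.628 without RES lamb 3 and ADL lamb 1.

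PSME4, a large nuclear activator known for its part in degrading acetylated histones, had the lowest level of the activators and stood at 14.9, 12.7, 13.6 and 16.1 TPM in RES lambs 1 to 4 and 10.7, 12.98, 10.1 and 12.01 TPM in ADL lambs 1 to 4. Only RES lamb 2 lay inside the ADL range. The difference was 0.30 ± 0.11 (SE; limma adjusted p = 0.395), or 0.20 scaled. PSME3, the nuclear relative of the 11S activator, stood at 26.2, 24.7, 22.8 and 26.2 TPM in RES lambs 1 to 4 and 19.2, 24.7, 21.9 and 24.3 TPM in ADL lambs 1 to 4. RES lamb 3 lay inside the ADL range and RES lambs 1, 2 and 4 just above it, and the difference was 0.15 ± 0.099 (SE; limma adjusted p = 0.536). The inhibitor PSMF1 averaged 36.1 ± 6.92 TPM in RES and 36.01 ± 3.74 TPM in ADL, with a difference of -0.011 ± 0.14 on the log2 scale.

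Assembly factors hold subunits together while the core and cap are built and are absent from the finished particle. The chaperones PSMG1 to PSMG4 guide the alpha ring, and PSMD5, PSMD9 and PSMD10 guide the base of the cap. All 7 were higher in deposited TPM (median 0.15) and 5 of 7 after scaling (median 0.046), with 0 at an unadjusted p under 0.05 on either scale. PSMG3 stood at 33.3, 35.7, 31.5 and 31.3 TPM in RES lambs 1 to 4 and 27.7, 30.7, 28.7 and 29.3 TPM in ADL lambs 1 to 4. All 4 RES lambs lay above all 4 ADL lambs, and the difference was 0.17 ± 0.077 (SE; limma adjusted p = 0.424), or 0.073 scaled, where the groups overlapped. PSMG1 stood at 33.95, 30.9, 33.04 and 31.04 TPM in RES lambs 1 to 4 and 27.9, 31.9, 27.9 and 28.02 TPM in ADL lambs 1 to 4. ADL lamb 2 stood apart from the other ADL lambs and within the RES range, and the difference was 0.15 ± 0.079 (SE; limma adjusted p = 0.459). PSMG4 was the most abundant of the class (57.1 TPM over 8 lambs), on a gene length of only 364 bases, and PSMD10 the least (11.6 TPM), beside 8.40 TPM for LOC101104566, a row described as the same subunit. The other 5 had differences of 0.13 for PSMG2, 0.15 for PSMG4, 0.072 (scaled -0.028) for PSMD5, 0.042 (scaled -0.057) for PSMD9 and 0.22 for PSMD10, and their groups overlapped. PSMD9 varied most among the ADL lambs of all 46, from 20.7 TPM in ADL lamb 1 to 40.1 TPM in ADL lamb 2.

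Proteins that work on or beside the proteasome were described from lists of pathway genes. Of 19 tested proteasome-associated genes, 18 were higher in deposited TPM, 6 of them at an unadjusted p under 0.05 (10.4% of all tested genes), with a median of 0.16. After scaling 13 were higher and 1 had an unadjusted p under 0.05 (3.4%), with a median of 0.061. Both enzymes closest to the threshold edit ubiquitin chains at the cap. USP14, a deubiquitinase, averaged 26.7 ± 0.735 TPM in RES and 21.9 ± 2.20 TPM in ADL, with a difference of 0.28 ± 0.087 (SE; limma adjusted p = 0.395). UBE3C, a ubiquitin ligase, averaged 19.6 ± 1.89 TPM in RES and 16.01 ± 0.969 TPM in ADL, with a difference of 0.28 ± 0.093 (SE; limma adjusted p = 0.395). Of the 19 genes, 5 had groups that did not overlap in deposited TPM, all higher in RES (6.61% of all tested genes). After scaling 0 did on either side (2.22% higher and 2.41% lower over all tested genes). USP14 and UBE3C, named for their small p, were among those 5.

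The 6 genes of ubiquitin supply and activation had 5 higher and 1 lower in deposited TPM (median 0.20). After scaling 4 were higher and 2 lower (median 0.095), with 1 higher (3.4% of all tested genes) and 1 lower (4.25%) at an unadjusted p under 0.05. UBA6, a ubiquitin-activating enzyme, averaged 25.5 ± 3.02 TPM in RES and 19.5 ± 1.64 TPM in ADL, with a difference of 0.37 ± 0.10 (SE; limma adjusted p = 0.395), and was the 1 of 6 at an unadjusted p under 0.05 in deposited TPM (10.4% of all tested genes). UBA1, the main activating enzyme, averaged 54.00 ± 5.17 TPM in RES and 46.4 ± 4.43 TPM in ADL (0.22 ± 0.099, limma adjusted p = 0.431). A further list was built around NFE2L1 (NRF1), the transcription factor that raises proteasome subunit expression when proteasome activity is short. In it 8 of 10 were higher (median 0.15), or 7 after scaling (median 0.049), with 0 at an unadjusted p under 0.05 on either scale. The 2 closest to the threshold were MAFK, a dimer partner of NFE2L1, and FBXW7, a ubiquitin ligase subunit that targets NFE2L1. MAFK averaged 3.03 ± 0.941 TPM in RES and 4.20 ± 0.963 TPM in ADL (-0.38 ± 0.20, limma adjusted p = 0.460). It rested on only 7 to 18 reads per lamb, which limits its precision. FBXW7 averaged 1.14 ± 0.120 TPM in RES and 0.926 ± 0.05002 TPM in ADL (0.15 ± 0.10, limma adjusted p = 0.535). NFE2L1 itself, chosen after its values were seen, averaged 61.3 ± 3.87 TPM in RES and 56.7 ± 5.79 TPM in ADL, with a difference of 0.11 ± 0.095.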

How the data were processed

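Liver RNA of 8 lambs was DNase-treated, poly(A)-selected and read from both ends (100 bases) on an Illumina HiSeq, per the labels' protocols. Of the tools, bcl2fastq 1.8.4 and DESeq2 1.12.4 stand in the submitters' processing notes, with aligner, counter, strand setting and build not given in the sources used here. Per the file headers, the authors deposited TPM for each lamb with the gene length behind it. The deposited table also holds the authors' DESeq2 mean of normalized counts, a signal scaled by size factors, log2 fold changes, a Wald score, and p-values. TPM times gene length, over the smallest value above 0 per library, gave whole reads for 100% of values (tolerance 1e-06), and the mean of normalized counts recomputed from them equals the deposited one (ratio 1); the depth quoted is their sum.

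Log2(TPM + 1) was fitted with limma 3.58.1 (lmFit, eBayes with trend) in R 4.3.3, and ratios were tested by exact permutation in Python 3.11.15. Scripts were tested on simulated data. Same-numbered lambs share only a number. Member classes, pathway lists, tests and the rule for genes given in full (per class the 2 smallest p, plus PSMB5 to PSMB10, PSME1 and PSME2; per pathway list the 2 smallest p) were chosen with earlier results of these data known. Other genes named were picked after their values were seen. SEM1, ZFAND2A and CD163 were not analysed here; 6 listed symbols were matched through the gene ID of a sheep RefSeq table. Alternatives were other pseudocounts, filters and scalings, robust eBayes, voom on recovered reads, each lamb left out and a block.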

Additional observations from a re-analysis of the deposited data

Results flagged for a closer look

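Of 42 groups of 4 lambs examined over the 18 members given lamb by lamb and the 3 ratios, 3 had a lamb far from the rest, where about 1 in 20 would by chance. RES lamb 3 stood apart for both subunits of the 11S activator, with 371 TPM of PSME1 and 129.5 TPM of PSME2. ADL lamb 2 stood apart for the assembly chaperone PSMG1, with 31.9 TPM.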

How the results depend on the processing

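No member passed an adjusted p of 0.05 under any alternative run. Over all genes the limma count was 1 with no filter on low values, 1 without ADL lamb 1 and 0 under the other alternatives, so 0 to 1 with a lamb left out, and no call was a member. Division by size factors moved the class medians by more than the spread between lambs to -0.12 (constitutive beta), -0.056 (19S ATPases), 0.099 (19S non-ATPases) and 0.046 (assembly factors), and quantile normalization moved those of the 19S ATPases to -0.035 and of the assembly factors to 0.033. The ATPase medians changed sign in both. After division by size factors the medians of the alpha, immunoproteasome and activator classes fell too, to 0.076, 0.063 and 0.049. Those moves lay within the wider spread of these classes between lambs, and the median of all tested genes fell from 0.095 to 0.0056. With a lamb left out, the log2 ratio of PSMB8 over PSMB5 differed by -0.17 to 0.21, and the differences of PSMB8 (-0.013 to 0.34), PSMB10 (-0.023 to 0.29), PSMB7 (-0.048 to 0.037) and PSME2 (-0.13 to 0.24) crossed 0. The ratio of PSMB9 to PSMB6 summed with its pseudogene rows, an alternative chosen after seeing the data, differed by 0.32 (exact permutation p = 0.400). Other class medians and member differences given in full kept their direction or moved by less than that spread. Same-numbered lambs had correlations of deviations of 0.15, -0.12, 0.054 and 0.058, so the numbers were not taken as pairs; with the lamb number as a replicate block limma called 0 genes and 5 members had an unadjusted p under 0.05. At an unadjusted p under 0.05, 3 members were higher and 1 lower with quantile normalization, against 9 and 0 in deposited TPM, and 3 to 11 were higher with a lamb left out. Over all tested genes, in either direction, 1014 were under 0.05 with quantile normalization, against 1594 in deposited TPM. The lowest read number of a tested member in a lamb was 61 (PSMB9), which limits its precision.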

Other observations

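The table holds 16 proteasome rows outside the symbol rule that are described as pseudogenes, 6 of them with a mean of at least 1 TPM, and reads can be shared between such rows and their parent genes. Of the 6 PSMB6 pseudogenes, LOC101119057 stood at 92.1, 91.1, 86.7 and 73.5 TPM in RES lambs 1 to 4 and 91.5, 90.9, 90.4 and 79.8 TPM in ADL lambs 1 to 4, above PSMB6 itself in every lamb. PSMB6 with its pseudogene rows summed to 159.7 ± 14.8 TPM in RES and 163 ± 5.35 TPM in ADL (SD, n = 4 each), well above the PSMB6 row alone. The PSMD14 pseudogene LOC101120804 stood at 34.5, 28.9, 25.6 and 27.4 TPM in RES lambs 1 to 4 and 20.1, 24.4, 21.6 and 28.7 TPM in ADL lambs 1 to 4. LOC101104566, described as 26S proteasome non-ATPase regulatory subunit 10, stood at 8.10 ± 3.20 TPM in RES and 8.70 ± 2.73 TPM in ADL. The levels of PSMB6, PSMD14 and PSMD10 are thus uncertain as levels of single genes.

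The spread within RES was wide for the immunoproteasome. The SD of log2(TPM + 1) over the 4 RES lambs was 0.67 for PSMB9 and 0.56 for PSMB8, the 2 largest of the 46 members, and 0.47 for PSMB10. Over the 4 ADL lambs it was 0.20 for PSMB9, 0.19 for PSMB8 and 0.19 for PSMB10. The median SD of the 46 members was 0.13 in RES and 0.13 in ADL, and that of all tested genes 0.18 in RES and 0.16 in ADL. The difference in spread was not tested.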
